A study of Mus musculus with 3 samples.

Results

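The 10 genes described here encode proteins of the synaptonemal complex and of the chromosome axis of meiotic prophase, namely Sycp1, Sycp2, Sycp3, Syce1, Syce2, Syce3, Tex12, Hormad1, Hormad2 and Smc1b. They were taken by symbol from the 31053 genes of the count tables, and all 10 were found there. Testicular cells of adult C57BL/6 mice of 3 genotypes, wild type (WT), GRTH-KO (KO) and GRTH-KI (KI), were measured by single-cell RNA-seq with no treatment. GRTH is the RNA helicase that Ddx25 encodes. KO mice lack it, and KI mice carry a missense mutation, arginine to histidine, that removes its phosphorylated form. The labels give 1 mouse aged 8 weeks for each genotype, whereas the methods of the study describe pooled mice over a wider range of ages. Since each genotype is a single library, differences between genotypes carry no replicate check and are given without a test. Each interval given below is a 95% interval of the unique molecular identifiers (UMIs) or cells counted, exact in each case, and covers counting error only.

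The synaptonemal complex is the protein ladder that holds homologous chromosomes together while they recombine. SYCP2 and SYCP3 form its lateral elements along each chromosome axis, SYCP1 forms the transverse filaments between them, and SYCE1, SYCE2, SYCE3 and TEX12 build the central element in which the filaments meet. HORMAD1 and HORMAD2 bind axes that have not synapsed and leave them as synapsis proceeds, and SMC1B is the meiotic form of a cohesin subunit. The complex is assembled in zygotene, is complete in pachytene and is taken apart in diplotene, so that round spermatids have none.

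The promoters of these genes, 250 bases before to 50 bases after the annotated start of transcription, were read from RefSeq on GRCm38.p6, where 13 promoters of the 10 genes were listed. Letters of 4 motifs were searched on both strands: CACGTG (E-box), GGCGGGA (E2F), CCTCAG (core of the STRA8 site) and CAACTG (a MYB site). The E-box letters stood in 6 of the 13 promoters and in 5 of the 10 genes, against 7.15% of the 32851 promoters searched in all. Both promoters of Hormad1, which overlap almost wholly, count among the 13. The E2F letters were found in 4 of the 13 promoters, of 3 genes (11.3% of all promoters). The STRA8 core was found in 8 of the 13, of 7 genes (26.75% of all promoters), and the MYB letters in 1, of Syce3 (13.65% of all promoters). The first 5 promoters below are those of the genes that hold the E-box letters. Those of Sycp2, in which none of the motifs was found, and of Smc1b, which holds only the STRA8 core, are set beside them. They lie at chr3:102936051-102936350 on the minus strand (Sycp1), chr10:88459337-88459636 on the plus strand (Sycp3), chr9:50561219-50561518 on the minus strand (Tex12), chr3:95559427-95559726 on the plus strand (Hormad1), chr8:84872008-84872307 on the plus strand (the second of the promoters listed for Syce2), chr2:178407609-178407908 on the minus strand (Sycp2) and chr15:85131908-85132207 on the minus strand (Smc1b). Each is written 5′ to 3′ on the strand of its gene, and capitals mark the letters of a motif or of its reverse complement. In Syce2, the reverse complement of the STRA8 core and the E2F letters overlap and read as 1 run.
Sycp1: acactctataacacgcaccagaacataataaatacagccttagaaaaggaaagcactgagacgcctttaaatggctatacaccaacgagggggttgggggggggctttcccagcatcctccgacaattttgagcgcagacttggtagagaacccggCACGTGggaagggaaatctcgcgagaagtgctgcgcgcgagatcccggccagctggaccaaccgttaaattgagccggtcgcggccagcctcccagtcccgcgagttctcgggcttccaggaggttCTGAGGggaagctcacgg
Sycp3: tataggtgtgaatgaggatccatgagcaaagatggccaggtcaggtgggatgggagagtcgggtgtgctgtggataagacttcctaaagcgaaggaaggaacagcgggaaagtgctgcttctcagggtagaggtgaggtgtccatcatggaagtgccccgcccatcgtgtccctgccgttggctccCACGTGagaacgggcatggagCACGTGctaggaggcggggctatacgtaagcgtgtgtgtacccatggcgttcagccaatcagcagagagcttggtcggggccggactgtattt
Tex12: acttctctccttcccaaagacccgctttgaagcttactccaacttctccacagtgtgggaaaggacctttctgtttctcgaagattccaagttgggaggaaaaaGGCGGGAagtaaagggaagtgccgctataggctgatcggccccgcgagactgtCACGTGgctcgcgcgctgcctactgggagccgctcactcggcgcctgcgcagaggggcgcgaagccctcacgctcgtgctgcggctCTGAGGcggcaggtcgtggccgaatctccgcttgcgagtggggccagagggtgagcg
Hormad1: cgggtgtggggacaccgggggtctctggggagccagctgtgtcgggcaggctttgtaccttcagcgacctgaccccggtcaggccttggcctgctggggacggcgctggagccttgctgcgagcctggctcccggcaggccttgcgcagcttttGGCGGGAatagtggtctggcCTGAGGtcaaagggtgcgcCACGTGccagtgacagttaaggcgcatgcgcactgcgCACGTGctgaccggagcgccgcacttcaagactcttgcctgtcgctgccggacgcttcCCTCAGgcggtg
Syce2: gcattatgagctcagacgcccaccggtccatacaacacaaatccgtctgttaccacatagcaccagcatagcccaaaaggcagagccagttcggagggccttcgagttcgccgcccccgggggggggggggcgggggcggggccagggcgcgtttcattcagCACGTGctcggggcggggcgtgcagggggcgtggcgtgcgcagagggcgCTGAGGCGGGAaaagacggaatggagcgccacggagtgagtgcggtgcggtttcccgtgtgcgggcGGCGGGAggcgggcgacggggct
Sycp2: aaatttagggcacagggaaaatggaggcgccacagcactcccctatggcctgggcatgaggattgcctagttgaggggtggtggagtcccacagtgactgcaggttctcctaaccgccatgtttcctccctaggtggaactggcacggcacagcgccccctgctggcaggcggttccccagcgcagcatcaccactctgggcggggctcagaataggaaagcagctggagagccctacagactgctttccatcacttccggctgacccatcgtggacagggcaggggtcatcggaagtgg
Smc1b: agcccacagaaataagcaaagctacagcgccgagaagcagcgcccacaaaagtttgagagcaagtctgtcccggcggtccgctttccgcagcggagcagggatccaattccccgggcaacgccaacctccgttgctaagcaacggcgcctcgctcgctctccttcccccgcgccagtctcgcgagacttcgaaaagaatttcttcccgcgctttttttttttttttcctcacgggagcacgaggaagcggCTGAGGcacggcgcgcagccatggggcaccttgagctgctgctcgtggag

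In Sycp1 the E-box letters began 94 bases before the start of transcription, in Tex12 93 bases, in Syce2 88 bases, in Sycp3 64 and 43 bases and in Hormad1 57 and 20 bases. A match is a run of letters and no measure of binding, and the libraries hold no data on binding or methylation. The share of G and C in the 7 promoters shown lay between 56.7% and 69.3%, against a median of 52.7% over all promoters. The ratio of observed to predicted CpG was 0.363 for Sycp2 and 0.666 to 1.08 for the other 6, against a median of 0.384. The promoters not shown went lower, to 54.7% G and C for Syce1 and a CpG ratio of 0.218 for the second of Syce3.

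In all, 82973909 UMIs were counted for WT, 91388296 for KO and 73150373 for KI, where a UMI stands for 1 captured molecule. Of the barcodes, 5870, 4059 and 1573 were kept as cells, with a median of 5112, 4010 and 11735.0 UMIs and of 0.0578%, 1.64% and 1.33% mitochondrial UMIs. Between 8 and 37 kept barcodes were shared by any pair of libraries. Ddx25 was at 130 CPM (the UMIs of a gene scaled to the same total of UMIs in each group of cells) in WT, 0.279 CPM in KO and 96.2 CPM in KI over all kept cells. Cells were clustered without the 10 genes, and the clusters were named from other marker genes, where a name ending in -like marks a rebuilt class. Spermatogonia-like (SG-like) cells numbered 37, 38 and 22 in WT, KO and KI, and early spermatocyte-like (early SP-like) cells, which stand for preleptotene to zygotene, 77, 99 and 57. There were 309, 443 and 202 pachytene-like, 151, 218 and 62 late SP-like (diplotene to division), 567, 495 and 201 round spermatid-like (RS-like) and 2254, 261 and 123 elongated spermatid-like (ES-like) cells. All 11 markers of early prophase stood above the other cells in the early SP-like cluster, where their summed level was 2366 CPM in WT, 3513 CPM in KO and 3674 CPM in KI, against 291 CPM or less in pachytene-like cells but 1545, 1518 and 1679 CPM in SG-like cells. With more weight against rare genes in ranking leading genes, that cluster would have stayed unnamed. ES-like cells of KO and KI came mostly from other clusters than those of WT and are not compared between genotypes.

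In WT the 10 genes together were at 2943 CPM in SG-like cells (2748 to 3147) and highest in early SP-like cells, at 9903 CPM (9689 to 10119.7). They were then at 3132 CPM in pachytene-like, 1772 CPM in late SP-like, 1519 CPM in RS-like and 1038 CPM in ES-like cells. KO and KI followed the same order up to RS-like cells, with 10659.9 and 11194.2 CPM in early SP-like cells, 3118 and 3237 CPM in pachytene-like cells, 2056 and 2035 CPM in late SP-like cells and 1657 and 1536 CPM in RS-like cells. From early SP-like to RS-like cells the log2 ratio of the sum was -2.70 in WT (-2.75 to -2.66), -2.68 in KO (-2.73 to -2.64) and -2.87 in KI (-2.91 to -2.82). The sum hid 2 patterns that were grouped after the values were seen. Sycp1, Sycp2, Sycp3, Tex12, Hormad1 and Hormad2 were far lower in RS-like than in early SP-like cells, with a log2 ratio of their sum of -5.31 in WT, -4.23 in KO and -4.64 in KI. Syce1, Syce2, Syce3 and Smc1b were between -1.72 and 0.74 in the 3 libraries.

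**Figure D1:**
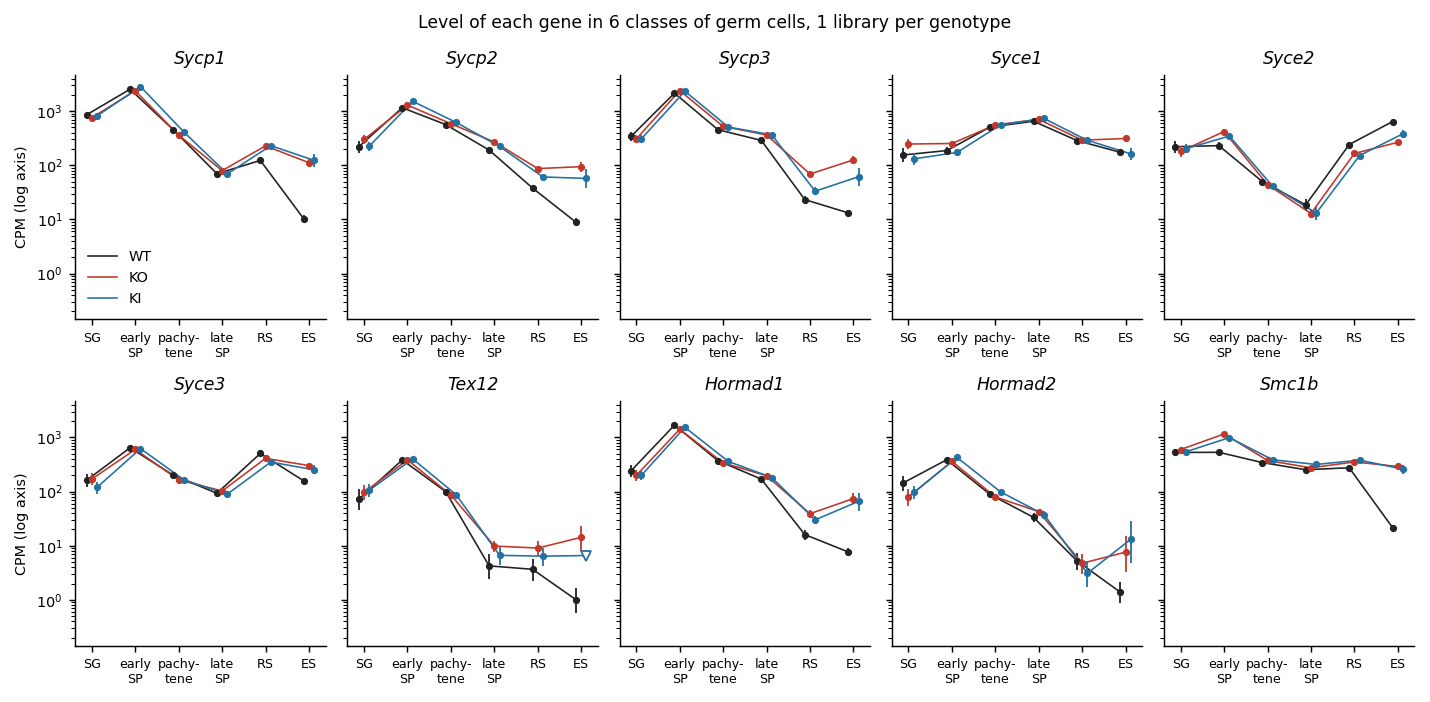
Level of each of the 10 genes in CPM (log axis) in 6 germ cell classes of WT, KO and KI, 1 library each, with bars for the 95% interval of the counted UMIs and an open triangle for the limit that a count of 0 allows. Sycp1, Sycp2, Sycp3, Tex12, Hormad1 and Hormad2 peak in early SP-like cells, Syce1 peaks in late SP-like cells, and Syce2 is lowest there, with 18.6 CPM for WT, 12.9 CPM for KO and 13.1 CPM for KI.

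Sycp1 (chr3:102818499-102936100, minus strand, GRCm38), the transverse filament gene, was at 2542 CPM in early SP-like cells of WT, 2374 CPM in KO and 2847 CPM in KI. It was at 856 CPM in SG-like cells of WT, a class that also held markers of early prophase, more than any other of the 10 genes there. In pachytene-like cells it measured 450 CPM (WT), 362 CPM (KO) and 411 CPM (KI), and late SP-like cells held 69.8, 79.6 and 69.4 CPM. Among the 6 genes of steep decline, Sycp1 alone was higher again in RS-like than in late SP-like cells in all 3 libraries, at 123, 228 and 231 CPM. The log2 ratio of RS-like over late SP-like cells was 0.82 in WT (0.61 to 1.03), 1.52 in KO and 1.73 in KI. The RS-like class joined 3 clusters of unequal depth. Sycp1 was at 91.7, 198 and 201 CPM in cluster 8, with a median of 14091.0 UMIs per cell, and at 517, 446 and 446 CPM in cluster 12, with a median of 2656 UMIs.

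The lateral element genes declined less than Sycp1 up to late SP-like cells and, unlike Sycp1, were lower again in RS-like cells. Sycp3 (chr10:88459569-88473236, plus strand) was at 2151, 2398 and 2330 CPM in early SP-like cells of WT, KO and KI and at 455, 523 and 508 CPM in pachytene-like cells. It kept 288, 364 and 365 CPM in late SP-like cells, and was at 23.3, 69.0 and 33.2 CPM in RS-like cells. Sycp2 (chr2:178345293-178407685, minus strand) was at 1156, 1293 and 1519 CPM in early SP-like cells and still at 565, 586 and 619 CPM in pachytene-like cells. Its log2 ratio between these classes in WT, -1.03 (-1.13 to -0.93), was the least negative of the 6 genes of steep decline. In RS-like cells Sycp2 was at 38.0, 86.9 and 60.9 CPM. Sycp3 shares its locus with the protein-coding gene Chpt1 on the other strand, and whether reads of Chpt1 were counted for Sycp3 was not tested.

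The HORMAD genes, whose products mark unsynapsed axes, were among the genes of steepest decline. Hormad1 (chr3:95559677-95587671, plus strand) was at 1689 CPM in early SP-like cells of WT, 1415 CPM in KO and 1536 CPM in KI, while RS-like cells held 16.1, 39.0 and 30.1 CPM. That is a log2 ratio of -6.71 in WT (-7.03 to -6.41), -5.18 in KO and -5.67 in KI. Hormad2 (chr11:4345814-4441105, minus strand) was at 387, 362 and 427 CPM in early SP-like cells, while RS-like cells held 5.25, 4.74 and 3.10 CPM, which rest on 30, 22 and 14 UMIs. Over the 6 classes of the 3 libraries, 18 points that share libraries and totals, log2 levels of Sycp3 and Hormad1 had a Pearson r of 0.992, the highest of the 45 pairs of the 10 genes.

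The 4 central element genes did not share 1 course. Tex12 (chr9:50556819-50561325, minus strand), which overlaps Il18 on the other strand, measured 383 CPM (WT), 386 CPM (KO) and 401 CPM (KI) in early SP-like cells, and pachytene-like cells held 99.8, 86.3 and 87.7 CPM. In late SP-like cells it was at 4.24, 9.87 and 6.65 CPM, the steepest step between neighbouring classes of any of the 10 genes in WT, with a log2 ratio of -4.56 (-5.37 to -3.85). Syce1 (chr7:140777229-140787852, minus strand) ran the other way over the same classes. It was at 187, 253 and 173 CPM in early SP-like, 509, 558 and 559 CPM in pachytene-like and 651, 704 and 732 CPM in late SP-like cells, while RS-like cells held 286, 291 and 289 CPM. It made up 36.8% of the summed UMIs of the 10 genes in late SP-like cells of WT, 34.2% in KO and 36.0% in KI. These libraries count 3′ ends, so that a longer transcript gives no more UMIs, but capture may still differ between genes.

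Syce3 and Syce2 had a low point in late SP-like cells and a second high level in spermatids. Syce3 (chr15:89390174-89410503, minus strand) was at 644, 601 and 622 CPM in early SP-like cells of WT, KO and KI, at 93.1, 103 and 89.6 CPM in late SP-like cells and again higher in RS-like cells, with 507, 411 and 351 CPM. Its log2 ratio of RS-like over late SP-like cells was 2.45 in WT (2.28 to 2.61), 2.00 in KO and 1.97 in KI. Syce2 (chr8:84872111-84888221, plus strand), which overlaps Gcdh on the other strand, was at 231, 420 and 347 CPM in early SP-like, 18.6, 12.9 and 13.1 CPM in late SP-like and 241, 165 and 152 CPM in RS-like cells. Its log2 ratio of RS-like over late SP-like cells, 3.70 in WT (3.35 to 4.07), 3.68 in KO and 3.54 in KI, was the highest of the 10 genes in each library. In WT, Syce2 went on to 643 CPM in ES-like cells, where it made up 61.9% of the summed UMIs of the 10 genes, and to 1442 CPM in cluster 5 of these, nearly all of whose cells were from WT. Free RNA can add to such levels, since the barcodes taken as empty held Syce2 at 221, 154 and 184 CPM and Syce3 at 484, 371 and 386 CPM. RS-like cells were thus at 1.09, 1.08 and 0.82 of the empty level for Syce2 and at 1.05, 1.11 and 0.91 for Syce3, while ES-like cells of WT were at 2.91 for Syce2. The ratio of Syce3 to Sycp3 UMIs was 21.8, 5.95 and 10.6 in RS-like cells and 3.12, 1.63 and 1.76 in empty barcodes, where Sycp3 was at 155, 228 and 219 CPM. The part of free RNA in the levels of Syce2 and Syce3 was not tested.

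**Figure D2:**
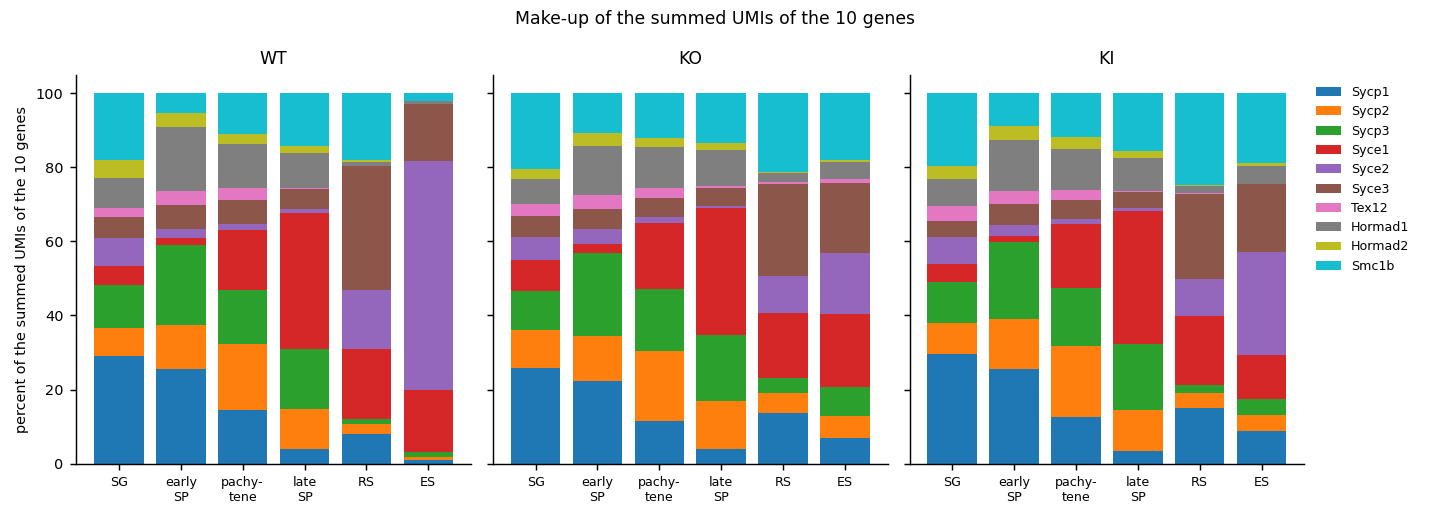
Share of each of the 10 genes in their summed UMIs, in percent, in 6 germ cell classes of WT, KO and KI. Sycp1 and Sycp3 hold 25.7% and 21.7% of the sum in early SP-like cells of WT, Syce1 holds 36.8% in late SP-like cells, Syce3 holds 33.4% in RS-like cells and Syce2 holds 61.9% in ES-like cells.

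Smc1b (chr15:85064689-85131964, minus strand), the meiotic cohesin gene, had the flattest course of the 10 in WT from SG-like to RS-like cells. It was there at 528 CPM in SG-like, 532 CPM in early SP-like, 343 CPM in pachytene-like, 253 CPM in late SP-like and 276 CPM in RS-like cells. In KO and KI it was at 1160 and 992 CPM in early SP-like cells, and RS-like cells held 353 and 380 CPM. RS-like cells held it at 1.38, 1.35 and 1.37 of the level of empty barcodes in WT, KO and KI. In ES-like cells of WT it was at 21.6 CPM.

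A level in CPM is lower when a cell holds more RNA, and pachytene-like cells were the deepest, with a mean of 32441.0 UMIs per cell in WT against 10703.0 in early SP-like cells. Counted per cell, the 10 genes together were nearly as abundant in pachytene-like as in early SP-like cells of WT, at a mean of 102 against 106 UMIs, and in KO and KI the mean was 115 against 110 and 270.1 against 190 UMIs. Sycp1 was at 27.2 UMIs per early SP-like cell of WT and at 14.6 per pachytene-like cell, Sycp3 at 23.03 and 14.7, and Hormad1 at 18.1 and 12.1. Sycp2, by contrast, was at 12.4 UMIs per early SP-like and 18.3 per pachytene-like cell, Smc1b at 5.69 and 11.1, and Syce1 at 2 and 16.5. Late SP-like cells held 44.3 UMIs of the 10 genes per cell, RS-like cells 15.3 and ES-like cells 7.31. Depth per cell depends on capture as well as on RNA content, and their parts were not tested.

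**Figure D3:**
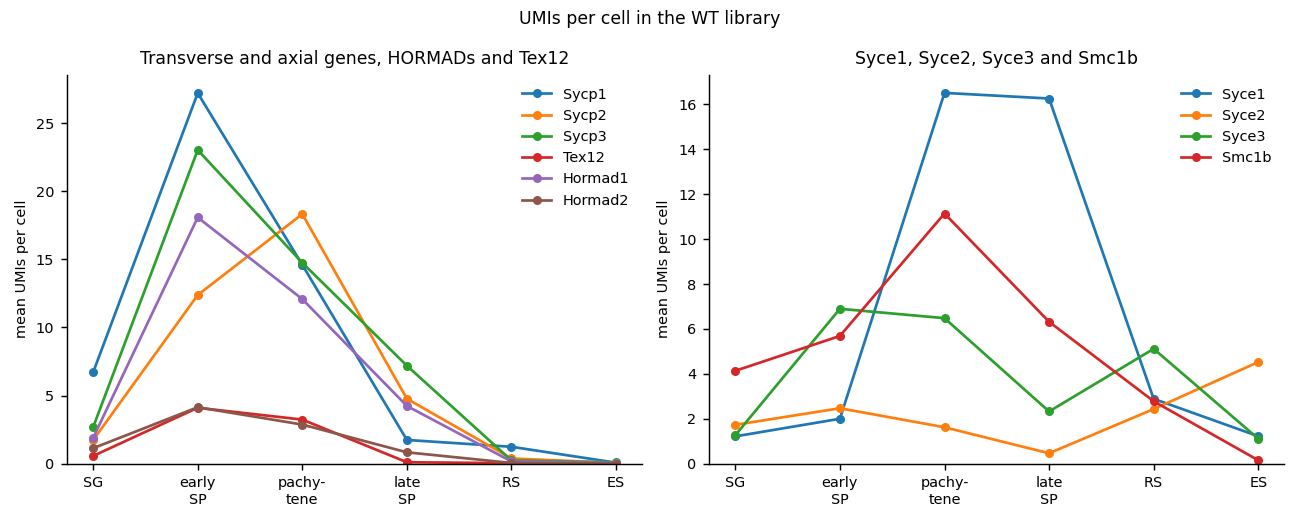
Mean UMIs per cell of each gene in 6 germ cell classes of the WT library, where each point is 1 class. Sycp1 and Sycp3 are highest per early SP-like cell (27.2 and 23.03 UMIs), whereas Sycp2 and Syce1 are highest per pachytene-like cell (18.3 and 16.5 UMIs) and Syce2 per ES-like cell (4.53 UMIs).

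Between genotypes, the largest differences in early SP-like cells were those of Smc1b and Syce2, which were higher in both mutants. Smc1b was at 532 CPM in WT (438 UMIs), 1160 CPM in KO (1185 UMIs) and 992 CPM in KI (958 UMIs), a log2 ratio against WT of 1.13 (0.97 to 1.29) and 0.90 (0.74 to 1.07). Syce2 was at 231, 420 and 347 CPM, a log2 ratio of 0.86 (0.61 to 1.12) in KO and 0.59 (0.33 to 0.85) in KI. Without integration the log2 ratio in KI was 0.48 for Smc1b and 0.28 for Syce2. Hormad1 was lower, with -0.26 (-0.36 to -0.15) in KO and -0.14 (-0.24 to -0.03) in KI, where the direction held in 5 of 7 alternatives (-0.28 to 0.11), and Sycp2 was higher, with 0.16 in KO (-0.087 with cells thinned to 2000 UMIs) and 0.39 (0.28 to 0.51) in KI. Of the other 6 genes, the log2 ratio lay between -0.11 and 0.43. The sum of the 10 genes differed by 0.11 in KO (0.06 to 0.15) and by 0.18 in KI (0.14 to 0.22), which came to 0.050 in KO and 0.030 in KI (-0.0027 to 0.062) without integration. Over the 10 genes the median log2 ratio was 0.08 (KO) and 0.13 (KI), beside 0.01 and -0.03 over all genes with a mean of at least 10 CPM. Of the 10 genes, 1 (Smc1b) was at least 2-fold higher in KO, where 6.64% of 9011 genes were, and 0 were at least 2-fold higher in KI, where 4.16% of 8703 genes were. None of the 10 was at least 2-fold lower, beside 3.02% of all genes in KO and 6.89% in KI.

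Markers of stages within early prophase differed between the genotypes in early SP-like cells. Stra8, which starts meiosis in preleptotene cells, was at 32.8 CPM in WT, 219 CPM in KO and 168 CPM in KI. Prdm9 was at 54.6, 118 and 102 CPM and Dmc1, a recombinase of leptotene and zygotene, at 232, 379 and 409 CPM. Meiob, another of the early prophase markers, went the other way in KO, with 347 CPM against 459 CPM for WT, and was close to WT in KI, with 448 CPM. A Stra8 UMI was found in 10 of 77 early SP-like cells of WT (12.99%, 6.41 to 22.6), 27 of 99 of KO (27.3%, 18.8 to 37.15) and 17 of 57 of KI (29.8%, 18.4 to 43.4). These shares were not thinned, the median depth was 5856, 7253 and 15919 UMIs, and the intervals overlap. Smc1b and Syce2 were both at higher values in the cells with a Stra8 UMI in every library, although Syce2 in these cells of WT rests on 26 UMIs. Smc1b was at 1201 against 455 CPM in WT, 1992 against 805 CPM in KO and 1830 against 626 CPM in KI, and Syce2 at 306 against 222, 714 against 295 and 593 against 240 CPM. Syce1 was also higher in every library, at 235.5 against 181, 331 against 219 and 276 against 128 CPM. So was Tex12, at 389 against 383, 468 against 350 and 504 against 356 CPM. Sycp3 and Hormad1 were lower in the cells with a Stra8 UMI in every library, with Sycp3 at 1366 against 2242, 1451 against 2801 and 1281 against 2788 CPM and Hormad1 at 1189 against 1746, 783 against 1684 and 866 against 1829 CPM. So were Sycp1, at 1920 against 2614, 1703 against 2660 and 2195 against 3132 CPM, and Sycp2, at 1131 against 1159, 963 against 1433 and 1482 against 1535 CPM. Hormad2 was lower as well, at 353 against 391, 295 against 391 and 388.5 against 443 CPM. Among cells without a Stra8 UMI, Syce2 in KI was thus close to WT, while Smc1b in both mutants and Syce2 in KO were above it. Summed markers of Sertoli cells in the early SP-like class were at 639.5 CPM in WT, 208 CPM in KO and 249 CPM in KI, those of elongated spermatids at 3393, 1303 and 563 CPM, those of spermatogonia at 78.9, 151 and 131.5 CPM, and those of pachytene at 3348, 3007 and 2658 CPM. The part of the mix of stages, of depth, of free RNA and of other cells in the differences of Smc1b and Syce2 was not tested.

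**Figure D4:**
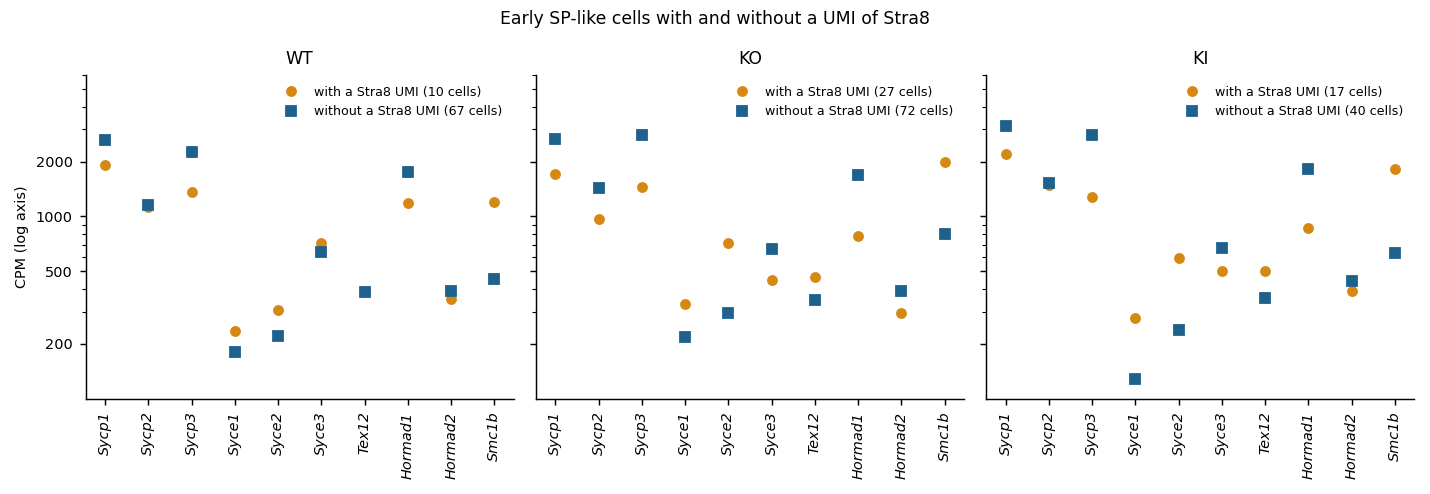
Level in CPM (log axis) of the 10 genes in early SP-like cells with a UMI of Stra8 (circles) and without one (squares) in WT, KO and KI, each point being the summed UMIs of those cells. Smc1b is higher with a Stra8 UMI in each library (1201 against 455 CPM in WT), and Sycp1, Sycp2, Sycp3, Hormad1 and Hormad2 are lower.

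In pachytene-like cells, where the complex is complete, the genotypes were close. The sum of the 10 genes differed from WT by a log2 ratio of -0.01 in KO (-0.03 to 0.01) and 0.05 in KI (0.03 to 0.07). Sycp1 was at 450 CPM in WT, 362 CPM in KO and 411 CPM in KI, a log2 ratio of -0.32 (-0.37 to -0.26) and -0.13 (-0.18 to -0.07). In KI it kept this direction in 6 of 8 alternatives (-0.13 to 0.11). Syce3 was lower in both mutants, at 200, 164 and 165 CPM, a log2 ratio of -0.28 in each. Sycp3 was higher in both, by 0.20 in KO and 0.16 in KI, as were Syce1 (0.13 and 0.14) and Smc1b (0.13 and 0.17). With cells thinned to 2000 UMIs, KI turned to -0.20 for Syce1 and to 0.017 for Syce3. Empty barcodes of WT, KO and KI held Syce3 at 484, 371 and 386 CPM and Sycp3 at 155, 228 and 219 CPM. Pachytene-like cells were at 0.41, 0.44 and 0.43 of these levels for Syce3 and at 2.925, 2.295 and 2.313 for Sycp3. The part of free RNA in these differences was not tested. None of the 10 genes was at least 2-fold higher or lower in KO or KI. Of all genes of at least 10 CPM, 0.0894% were at least 2-fold higher and 0.741% lower in KO, and 0.153% higher and 1.06% lower in KI. Over the 10 genes the median log2 ratio was -0.14 (KO) and 0.04 (KI), beside -0.03 and -0.01 over all genes. Sycp1 was unevenly spread over the 3 pachytene-like clusters, and in WT it was at 1530 CPM in cluster 24, 336 CPM in cluster 15 and 119 CPM in cluster 16. Without cluster 24, a choice made after seeing the data, the sum was higher in KO as well, by 0.09.

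Late SP-like cells, in which the complex is taken apart, held most of the 10 genes at somewhat higher and Syce2 at lower levels in the mutants. The sum of the 10 genes differed by a log2 ratio of 0.21 in KO (0.17 to 0.26) and 0.20 in KI (0.15 to 0.25). Sycp3 was at 288 CPM in WT, 364 CPM in KO and 365 CPM in KI, a log2 ratio of 0.34 (0.24 to 0.44) and 0.34 (0.23 to 0.46). Sycp2 was at 191, 269 and 223 CPM, with 0.49 (0.37 to 0.62) and 0.22 (0.08 to 0.37). The difference was not particular to these lateral element genes, with Smc1b at 0.12 and 0.33, Syce1 at 0.11 and 0.17, Hormad1 at 0.21 and 0.10 and Hormad2 at 0.35 and 0.17. Syce2 was at 18.6, 12.9 and 13.1 CPM, with -0.53 (-0.98 to -0.07) and -0.51 (-1.05 to 0.03). Summed markers of elongated spermatids, the class in which Syce2 was highest in WT, were at 1981 CPM (WT), 327 CPM (KO) and 148 CPM (KI) in late SP-like cells, and their part in the lower Syce2 was not tested. In empty barcodes Sycp3 was itself higher in the mutants, at 155, 228 and 219 CPM. Late SP-like cells were at 1.85, 1.60 and 1.66 of these levels, and the part of free RNA was not tested. No alternative processing was run for this class between genotypes. Of the 9 genes with a mean of at least 10 CPM, which leaves out Tex12, 8 were above 0 in KO and 6 in KI, beside 51.1% and 52.9% of all genes. Their medians were 0.19 and 0.17, beside 0.01 and 0.02 over all genes. Of these 9, none was at least 2-fold higher or lower in KO or KI, beside 0.653% of all genes higher and 1.18% lower in KO and 0.516% and 1.25% in KI. Tex12, below that level, rested on 16 UMIs in WT and 79 in KO, with a log2 ratio of 1.22 (0.43 to 2.09).

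In RS-like cells the lateral and transverse element genes and Hormad1 were higher in the mutants, and Syce2 and Syce3 were lower. Sycp3 was at 23.3 CPM in WT (133 UMIs), 69.0 CPM in KO (320 UMIs) and 33.2 CPM in KI (150 UMIs), a log2 ratio of 1.57 (1.27 to 1.87) in KO and 0.51 (0.17 to 0.86) in KI. Hormad1 was at 16.1, 39.0 and 30.1 CPM, with 1.28 (0.91 to 1.66) and 0.90 (0.51 to 1.30). Sycp2 was at 38.0, 86.9 and 60.9 CPM, with 1.20 (0.95 to 1.44) and 0.68 (0.42 to 0.94), and Sycp1 at 123, 228 and 231 CPM, with 0.89 (0.75 to 1.03) and 0.91 (0.77 to 1.05). Syce2 was at 241, 165 and 152 CPM, a log2 ratio of -0.54 (-0.67 to -0.42) in KO and -0.67 (-0.80 to -0.54) in KI. Syce3 was at 507, 411 and 351 CPM, with -0.30 (-0.39 to -0.22) and -0.53 (-0.62 to -0.44). Smc1b differed by 0.36 and 0.46 and Syce1 by 0.02 and 0.01. In KO the direction of Smc1b held in 8 of 9 alternatives (-0.010 to 0.58). The differences went both ways, and the sum differed by 0.13 in KO and 0.02 in KI. It turned to -0.13 and -0.19 with TMM size factors and to -0.063 and -0.066 with cells gated on their own markers.

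Of the 8 genes with a mean of at least 10 CPM in RS-like cells, which leaves out Tex12 and Hormad2, 3 (Sycp2, Sycp3 and Hormad1) were at least 2-fold higher in KO, where 7.7% of 8226 genes were. With cells gated on their own markers none of these 3 reached a fold of 2, at log2 ratios of 0.42, 0.67 and 0.52. In KI none of the 8 was 2-fold higher, where 7.2% of 8110 genes were. None of the 8 was at least 2-fold lower, beside 3.91% of genes in KO and 5.43% in KI. Their median was 0.63 in KO and 0.49 in KI, and that of all genes was itself above 0, at 0.19 and 0.17. With TMM size factors, namely 0.8999 (WT), 1.07 (KO) and 1.04 (KI), the log2 ratio in KO was 1.32 for Sycp3, 1.03 for Hormad1 and 0.94 for Sycp2, and Syce1 turned to -0.23 in KO and -0.19 in KI. Between the mutants, Sycp3 was lower in KI than in KO, with a log2 ratio of -1.06 (-1.35 to -0.77). Tex12, below a mean of 10 CPM, rested on 21, 42 and 29 UMIs in WT, KO and KI, with 1.30 (0.51 to 2.13) in KO and 0.81 (-0.05 to 1.69) in KI. Hormad2, also below it, went the other way on 30, 22 and 14 UMIs, with -0.15 (-1.01 to 0.70) and -0.76 (-1.79 to 0.20).

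Except for Sycp1, the genes of steep decline were at lower levels in RS-like cells than in empty barcodes, which hold free RNA. Sycp3 in RS-like cells stood at 0.1497 of its level in empty barcodes in WT, 0.303 in KO and 0.151 in KI, and Hormad1 at 0.193, 0.366 and 0.276, whereas Sycp1 stood at 1.11, 1.69 and 1.30. With cells of at least 2000 UMIs thinned to 2000, a Sycp3 UMI was found in 4.60% of RS-like cells of WT (2.83 to 7.01), 11.9% of KO (8.81 to 15.5) and 7.14% of KI (3.86 to 11.9). Without thinning, at median depths of 6494, 3448 and 11324.0 UMIs, it was found in 17.8%, 27.7% and 37.8% of them. In Sertoli-like cells, somatic cells that should lack the gene, it was found in 42.5%, 44.8% and 51.4% of the 80, 105 and 37 cells that reached 2000 UMIs, thinned likewise. The shares of RS-like cells were below these, but Sertoli-like cells are no clean background, with a ratio of Syce3 to Sycp3 UMIs of 0.710, 0.651 and 0.486 against 3.12, 1.63 and 1.76 in empty barcodes. Syce3 was found in 55.9%, 43.8% and 35.2% of thinned RS-like cells and in 38.75%, 36.2% and 35.1% of Sertoli-like cells, where the interval in KI ran from 20.2% to 52.5%. Sycp1 was found in 29.4%, 40.2% and 46.2% against 18.75%, 23.8% and 13.5%, and Syce2 in 32.6%, 23.2% and 22.0% against 22.5%, 17.1% and 13.5%.

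Markers of neighbouring stages also differed between WT and the mutants in RS-like cells. Summed markers of late spermatocytes were at 205 CPM in WT, 420 CPM in KO and 407 CPM in KI, those of pachytene at 1738, 2300 and 2381 CPM, and those of elongated spermatids at 13606.7, 5994 and 4753 CPM, while round spermatid markers were at 6366, 6239 and 5832 CPM. Within cluster 8 alone, which held 288, 192 and 92 of the RS-like cells, Sycp3 was higher by 1.52 in KO (1.17 to 1.87) and by 0.32 in KI (-0.09 to 0.74), and Sycp1 by 1.11 and 1.13. Hormad1 was higher there by 1.58 and 1.18, while Syce2 differed by -0.47 and -0.63 and Syce3 by -0.24 and -0.51. In cluster 12 Sycp1 was not higher in the mutants, with -0.21 in each. When cells were instead gated on their own markers, Sycp3 differed by 0.67 in KO and -0.02 in KI, and Syce2 by 0.06 and 0.02, so the lower Syce2 of the mutants depends on how RS-like cells are drawn. Clusters 20 and 22, left unnamed because their ES-like and RS-like scores were close, lay outside the RS-like class. Cluster 22 held 9, 174 and 55 cells of WT, KO and KI. Its Syce2 level was 355 CPM (KO) and 401.7 CPM (KI), and its Sycp1 level 30.4 and 29.2 CPM. Cluster 20 held 197, 49 and 17 cells. Syce2 measured 392.9 CPM (WT), 329.3 CPM (KO) and 355.1 CPM (KI) there, and Sycp1 22.2, 95.3 and 109.8 CPM. The part of the mix of stages and of free RNA in the differences of RS-like cells was not tested.

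**Figure D5:**
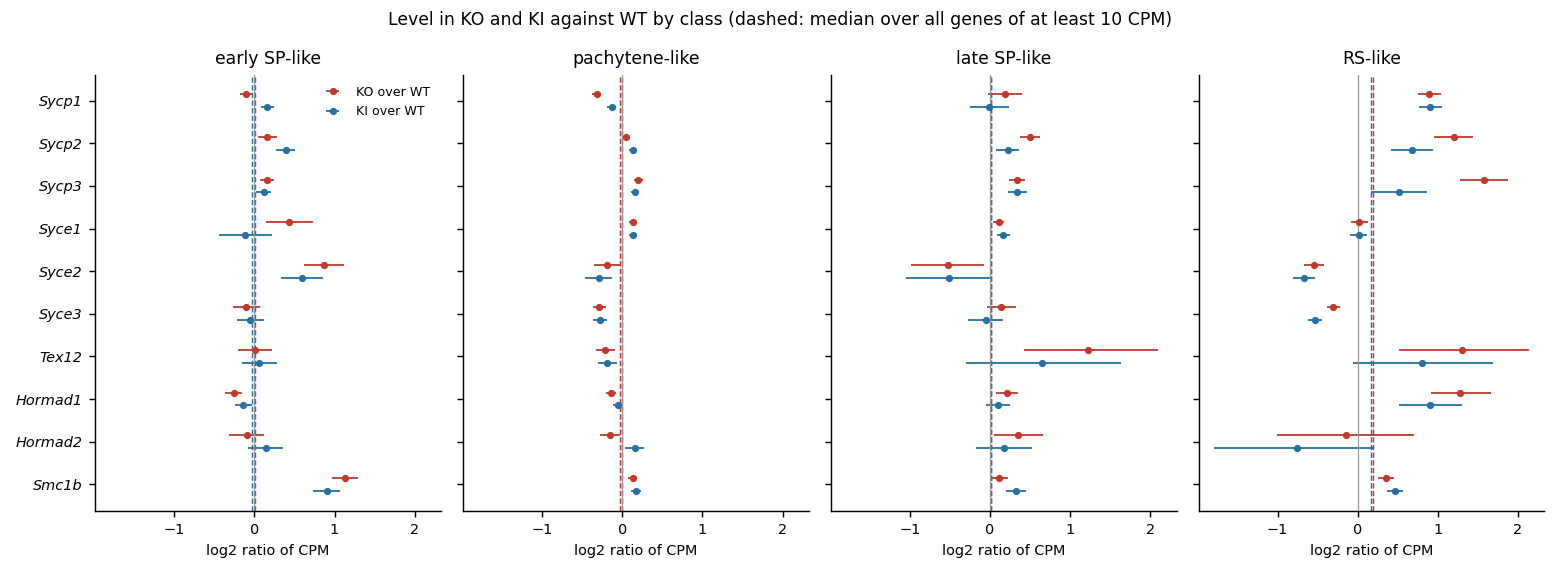
Log2 ratio of CPM of each gene in KO (red) and KI (blue) against WT in 4 classes, with bars for the 95% interval of the counted UMIs and dashed lines at the median of all genes of at least 10 CPM. Smc1b and Syce2 stand to the right in early SP-like cells (1.13 and 0.86 in KO), pachytene-like cells cluster near 0, and in RS-like cells Sycp1, Sycp2, Sycp3 and Hormad1 stand to the right and Syce2 and Syce3 to the left in both mutants.

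Genes that work with the 10 were followed as lists. Of 12 cohesin subunits and partners, Stag3 and Rad21l were highest in early SP-like cells of WT and 8 in SG-like cells. Stag3, the meiotic partner of SMC1B, was at 246, 266 and 260 CPM in early SP-like cells of WT, KO and KI, and Rad21l at 20.6, 52.8 and 37.3 CPM. In early SP-like cells 3 of 12 were at least 2-fold higher in KO (6.64% of all genes) and 1 of 11 in KI (4.16% of all genes), with Stag2 in both at a log2 ratio of 1.08 and 1.43 on 13, 34 and 41 UMIs. The others in KO were Rad21l (1.36) and Rec8, a meiotic kleisin, which rests on 3 UMIs in WT and 20 in KO. Rec8 was below 10 CPM in WT and met the mean of 10 CPM only through KO. In RS-like cells 1 of 8 was in each mutant (7.7% and 7.2% of all genes), Wapl, which releases cohesin, at 61.4, 127 and 136 CPM, below its level in empty barcodes of 80.6, 161 and 148 CPM. Of the partners of the synaptonemal complex and of the HORMADs, 11 of 15 symbols were in the tables and 6 of these were highest in early SP-like cells of WT. 4930447C04Rik, whose product is a central element protein also called SIX6OS1, was at 711, 850 and 908 CPM there, and Ankrd31, which acts in break formation, at 580, 594 and 676 CPM. Skp1a was at 528, 454 and 421.5 CPM, Hsf2bp at 133.5, 139 and 125 CPM, Rnf212 at 64.3, 62.6 and 83.9 CPM and Ccnb1ip1 at 52.2, 47.0 and 41.4 CPM. Mei4, needed for meiotic breaks, was the 1 of 11 at least 2-fold higher in early SP-like cells of each mutant, on 6, 38 and 39 UMIs. It was below 10 CPM in WT and met the mean of 10 CPM only through the mutants, so its count is no separate support. Of all genes, 6.64% were in KO and 4.16% in KI. Neither list held a gene at least 2-fold lower in KO or KI in early SP-like, pachytene-like, late SP-like or RS-like cells, where between 0.741% and 6.89% of all genes were, so that a count of 0 in lists this short says little.

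Of 10 symbols listed for genes that attach telomeres to the nuclear envelope, 8 were in the tables, and 4 of these were highest in early SP-like cells of WT. These were Sun1, with 119 CPM (WT), 126 CPM (KO) and 121 CPM (KI), Ccdc155 (which encodes KASH5), at 114, 91.01 and 69.4 CPM, Majin, at 112, 114 and 88.0 CPM, and Terb2, at 60.7, 98.8 and 67.3 CPM. Terf1, which binds telomere repeats, was higher in the mutants in late SP-like cells, at 30.2, 64.0 and 96.3 CPM, a log2 ratio of 1.08 (0.79 to 1.39) and 1.67 (1.37 to 1.98). It was the 1 of 5 genes at least 2-fold higher there in each mutant, beside 0.653% of all genes in KO and 0.516% in KI. The difference was not particular to this class, with Terf1 at 18.6, 48.6 and 65.5 CPM over all kept cells. Empty barcodes held it at 12.6, 32.8 and 43.0 CPM, and the part of free RNA was not tested. Terf1 was also the gene past this fold in early SP-like cells of KO (1 of 7 genes, log2 ratio 1.09), pachytene-like cells of KI (1 of 7, 1.43) and RS-like cells of KI (1 of 4, 1.06), where 6.64%, 0.153% and 7.2% of all genes were. Of 9 symbols listed for regulators of meiotic entry, 8 were in the tables. In early SP-like cells of WT 4 of these were highest, some of which were also used to name classes. Dazl was at 1417, 1550 and 1641 CPM there, Meioc at 405, 472 and 513 CPM, Ythdc2 at 238, 283 and 305.5 CPM and Mybl1 at 137, 141 and 162 CPM. Stra8 was the 1 of 8 at least 2-fold higher in early SP-like cells of each mutant, beside 6.64% of all genes in KO and 4.16% in KI. In RS-like cells 2 of 4 were, Meioc with 10.5, 44.0 and 28.1 CPM and Dazl with 9.97, 33.6 and 27.7 CPM, beside 7.7% and 7.2% of all genes, whose median was itself at 0.19 and 0.17. Dazl, just below 10 CPM in WT, met the mean of 10 CPM only through the mutants. The levels in empty barcodes were higher, with 41.3, 62.1 and 71.4 CPM for Meioc and 32.3, 40.2 and 66.5 CPM for Dazl, and the part of free RNA was not tested.

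Over the same 18 points of class and library, 9313 genes with at least 50 CPM in some class were ranked by their likeness to the sum of the 10 genes. The highest Pearson r of log2 levels was that of Inca1 (0.982), followed by Ccdc122 (0.971), Csf2ra (0.967), Meiob (0.962) and Zmynd11 (0.961). Meiob, which encodes a single-strand DNA binding protein of recombination, was also one of the markers that named the early SP-like cells. The genes most like Syce2 were Bmi1 (0.970), Selenok (0.963) and Prdx4 (0.955), and those most like Syce3 were Sec11c (0.938), Trim52 (0.917) and Cep112 (0.916). In WT, Selenok was at 243 CPM in early SP-like, 17.2 CPM in late SP-like and 482 CPM in ES-like cells, and Cep112 at 485, 26.0 and 232 CPM. Among the 10 genes, Syce1 and Syce2 had the lowest r, at -0.90.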

How the data were processed

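Testicular cells of 1 WT, 1 KO and 1 KI library were measured with 10x Genomics 3′ chemistry. The deposited values are raw UMI counts per gene and barcode, which the authors made from reads on mm10. Per the submitters' processing notes Cell Ranger 2.1.1 was used, while the headers of the count tables name a later major version, and the sequencer given by the labels is not that of the methods. The tables hold all barcodes, so cells were called again. Libraries held 73150373 to 91388296 UMIs, and intervals (exact Poisson, exact conditional for ratios, Clopper-Pearson for shares) cover counting error only.

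Cells were called by total counts or, above 500 UMIs, by profile against empty barcodes (false discovery rate 0.01), and kept with over 500 genes and under 10% mitochondrial counts. Counts were integrated with Seurat 5.3.0 and sctransform 0.4.2 on 2000 genes without the 10 genes, and clustered with scanpy 1.11.5 and leidenalg 0.10.2 (15 neighbours, resolution 1). Of 29 clusters, 18 were named: a name took 3 or more markers higher than in the remaining cells, plus a score that led the next class by 0.1. Clusters stayed unnamed where no class led (7), where markers of another class led the top genes (2), or where depth was low for their libraries and no own marker was among the top genes (2), so that 5058 of 11502 cells stayed unnamed. Scrublet marked 148, 5 and 12 cells in WT, KO and KI, and doublets were kept, with their removal as an alternative. In KO it marked 0.123% of cells, too few to count as a working call. UMIs were summed per class and library and given as CPM, and genes of at least 10 CPM were set against a fold of 2. TMM factors came from edgeR 4.0.16, without a test. Only the ratios and their intervals were tested on simulated counts with known folds.

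All 10 genes were named, with list genes at least 2-fold higher or lower or highest in early SP-like cells, and the genes of most like pattern. Genes named beyond these (Prdm9, Dmc1, Ccna1, Cdc20, Aurka, Piwil1, Pou5f2) are stage markers. The members, lists and markers were chosen with earlier results of these data known. Promoters are RefSeq's, and gene positions are those of the reference annotation of GRCm38. ES-like cells were left out of comparisons between genotypes.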

Additional observations from a re-analysis of the deposited data

Results flagged for a closer look

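Sycp1 in early SP-like cells and Hormad2 in pachytene-like cells lay on opposite sides of WT in the mutants. The log2 ratio against WT was -0.10 in KO and 0.16 in KI for Sycp1, and -0.15 in KO and 0.16 in KI for Hormad2. With 1 library per genotype the difference was not tested. KI over KO was 0.26 (0.18 to 0.34) for Sycp1 and 0.31 (0.20 to 0.42) for Hormad2, intervals of counting error alone. These directions depend on the processing. Hormad2 kept its direction in 5 of 8 alternatives in KO (-0.27 to 0.41) and 7 of 8 in KI (-0.10 to 0.57), and Sycp1 in 6 of 7 in KO (-0.16 to 0.022) and 6 of 7 in KI (-0.0066 to 0.23). Both comparisons share the WT library.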

How the results depend on the processing

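No paired analysis was possible because each genotype had 1 library, and for the same reason no replicate could be left out. The values below are log2 ratios of the summed 10 genes. With TMM factors, KI against WT was 0.22 in early SP-like cells, KO and KI were 0.034 and 0.089 in pachytene-like cells and -0.13 and -0.19 in RS-like cells, so that the direction turned in KO pachytene-like cells and in both RS-like comparisons. Without integration, RS-like over early SP-like cells was -2.62, -2.56 and -2.57 in WT, KO and KI, early SP-like cells were at 0.050 and 0.030 in KO and KI, pachytene-like cells at 0.045 and 0.075 and RS-like cells of KI at 0.085. At a resolution of 0.3 the decline was -2.46, -2.40 and -2.44, and early SP-like cells of KI were at 0.039. With cells gated on their own markers the decline was -2.43, -2.61 and -2.75, early SP-like cells of KI were at 0.26, pachytene-like cells at 0.069 and 0.16 and RS-like cells at -0.063 and -0.066. Removing cells of high doublet score gave a decline of -2.76 in KO. With cells thinned to 2000 UMIs the decline was -2.81 in KO and -2.95 in KI, pachytene-like cells were at -0.056 and 0.016 and RS-like cells at 0.027 and -0.028. Without cluster 24, chosen after seeing the data, pachytene-like cells were at 0.094 and 0.15. Without the filter on low levels, 25.6% and 28.0% of all genes in pachytene-like cells and 38.4% and 38.4% in RS-like cells were past a fold of 2 in KO and KI, against 0.830% and 1.21%, and 11.6% and 12.6%, with it. The causes were not tested. The higher Smc1b and Syce2 of early SP-like cells kept their direction in 7 of 7 alternatives in both mutants, with a lowest value in KI of 0.48 and 0.28, and the higher Sycp1, Sycp2 and Hormad1 and lower Syce3 of RS-like cells in 9 of 9. The size of the first 3 did not hold, and in RS-like cells of KO and KI it went down to 0.26 and 0.48 for Sycp1, 0.42 and 0.15 for Sycp2 and 0.52 and 0.22 for Hormad1, each with cells gated on their own markers. Some alternatives in these counts could not turn a direction, because they held the same cells as the main run. These were no cell calling for early SP-like cells (77, 99 and 57) and a resolution of 0.3 for pachytene-like cells (309, 443 and 202). Counting error limits Tex12 and Hormad2 most.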
